A study of Mus musculus with 8 samples.

Results

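A set of 10 genes whose products mark subclasses of cortical inhibitory interneurons (*Pvalb*, *Sst*, *Vip*, *Npy*, *Cck*, *Lhx6*, *Reln*, *Calb2*, *Crh* and *Cort*) was followed in RNA-sequencing libraries of mouse primary motor cortex (M1). They were chosen by name from the 38031 genes of the count table, by a rule that uses no expression value. Earlier results of these data were known when they were chosen. Male Swiss Webster mice received, at postnatal days 21 to 25, a lentivirus carrying mCherry and a short hairpin RNA, and M1 was dissected by its mCherry at postnatal days 49 to 53. The hairpin targeted *Fezf2* in 4 mice (*Fezf2 shRNA*) or no gene in the other 4 mice (*non-silencing shRNA*, the control), with 1 library of total RNA per mouse. Both hairpins were expressed from the synapsin I promoter, which is active in neurons, and the dissected tissue held transduced and untransduced cells of all cortical layers. A library therefore measures the whole dissected tissue, in which fewer cells of a type and less RNA per cell cannot be told apart.

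Interneurons release GABA onto other cortical neurons and are sorted into subclasses by the calcium-binding proteins and peptides they make. Parvalbumin (*Pvalb*) marks fast-spiking basket and chandelier cells, and somatostatin (*Sst*) marks cells that mostly inhibit dendrites. Both arise in the medial ganglionic eminence, where the LIM homeobox factor *Lhx6* is needed for their development. Vasoactive intestinal peptide (*Vip*) marks cells from the caudal ganglionic eminence that largely inhibit other interneurons, many of which also make calretinin (*Calb2*). Neuropeptide Y (*Npy*), cortistatin (*Cort*) and corticotropin-releasing hormone (*Crh*) are peptides of smaller groups of interneurons, and reelin (*Reln*) is a large secreted glycoprotein made by several of them. Cholecystokinin (*Cck*) marks one set of basket cells but is also made by cortical pyramidal neurons. *Fezf2*, the gene targeted, encodes a zinc-finger transcription factor of deep-layer projection neurons.

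The DNA before the start of 8 of the 10 genes was available from RefSeq (GRCm38.p6), and *Calb2* and *Crh* were not among them. In the 250 bases before each start, on both strands, the cyclic AMP response element TGACGTCA and its shorter core (TGACG, or CGTCA on the other strand) were searched. The core is shown for the 4 genes that held it. The capitals in each line mark the letters found, and the sequence reads 5′ to 3′ along the gene.
*Sst*, chr16:23890874-23890903, minus strand: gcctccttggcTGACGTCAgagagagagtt
*Vip*, chr10:5639128-5639157, plus strand: gatcactactgTGACGtctttcggggagcc
*Cck*, chr9:121495723-121495752, minus strand: ctgctggactgCGTCAgcactgggtaaaca
*Cort*, chr4:149126764-149126792, minus strand: tccggcttgtgCGTCAccgcgtgagtgtg

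The full element was found in *Sst* alone, where it begins at position -48 from the RefSeq start (114 bases inside the 5′ end of the counted transcript) and, being its own reverse complement, holds the core on both strands. The core began at -79 in *Vip*, -47 in *Cck* and -18 in *Cort*. Of 32851 promoter windows of the same length, 1.55% held the full element and 17.8% the core. No core was found in the windows of *Pvalb*, *Npy*, *Lhx6* and *Reln*, whose GC content was 71.6%, 69.2%, 61.6% and 80.0% against 47.2% in *Sst*, 38.4% in *Vip*, 60.0% in *Cck*, 48.0% in *Cort* and a median of 52.4% over all windows. A TATA box (TATAAA, or TTTATA on the other strand) was found only in *Vip* among the 8 windows, and in 12.4% of all windows. These are matches of letters and not measured binding.

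The libraries had 54684016 to 58003814 counts on genes, of which the 10 most abundant genes took 37.6% to 41.2%. Of all genes, 9959 were tested, those with more than 8 CPM (counts scaled to a common library size) in at least 4 libraries. *Fezf2* had 723 ± 35.4 normalized counts in *non-silencing shRNA*-treated M1 and 591 ± 22.1 in *Fezf2 shRNA*-treated M1 (SD, n = 4 each), with no overlap between the treatments (two-sided exact permutation p = 0.0286, the smallest that 4 against 4 allow). Its log2 fold change was -0.29 (standard error 0.078), which missed the threshold over all genes in the quasi-likelihood test of edgeR (adjusted p = 0.0824) and passed it in DESeq2 (adjusted p = 0.0256). With an offset for a trend with gene length it was -0.18 (edgeR adjusted p = 0.465). Markers of cortical excitatory neurons were present, as all 10 of a list of 10 passed the filter. The summed level of 8 oligodendrocyte markers varied widely, from 62486 to 113258 normalized counts in the controls and from 46483 to 76333 after *Fezf2 shRNA*.

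Levels can be set side by side between genes only per length, so the normalized counts of each gene were divided by the kilobases (kb) of its exons and, separately, of the whole genomic interval over which reads were counted. Per kb of exon, *Cck* had the highest level in every library, with a median over the 8 libraries of 13601 (range 11594 to 17319). *Sst* followed at 3847 (3629 to 4891) and *Npy* at 3224 (2663 to 3844), and these neighbours overlapped in their ranges. *Pvalb* stood at 1519 (1285 to 2214), apart from *Npy* above it and *Vip* below it. *Vip* at 633 (532 to 736) and *Reln* at 515 (444 to 605) overlapped. The lowest levels were those of *Lhx6* at 144, *Calb2* at 119, *Crh* at 109 and *Cort* at 57.1, each of which overlapped in range with the next. Per kb of the counted interval, which includes introns, *Sst* at 2001 and *Cck* at 1601 stayed highest, while *Reln* stood at 12.2 and *Calb2* at 6.65. The scale thus decides the place of *Reln*, whose interval of 459.441 kb holds only 10885 exonic bases. Both scales divide the same counts, so reads from introns also enter the level per kb of exon.

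**Figure D1:**
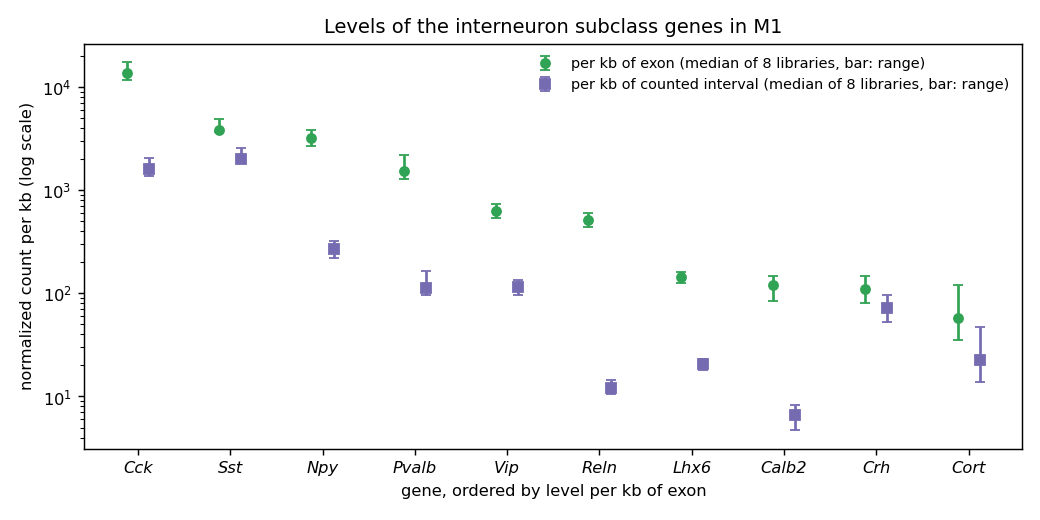
Normalized counts per kb (log axis) of the 10 interneuron subclass genes, divided by exon length (circles) or by the length of the counted interval (squares); points are medians of the 8 libraries and bars run from the lowest to the highest library. *Cck*, *Sst* and *Npy* lead per kb of exon, and *Reln* at 515 per kb of exon stands at 12.2 per kb of interval. The counts include reads from introns on both scales.

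The comparison asked whether lowering *Fezf2* in mature M1 was accompanied by a change in genes that mark interneuron subclasses. None of the 10 genes passed the threshold (edgeR adjusted p no higher than 0.05, with a log2 fold change of 0.2 or more in size), which 2.09% of the genes tested passed, 1.96% as higher and 0.131% as lower. In all, 7 of the genes had enough reads to be tested, with adjusted p from 0.172 to 0.771, and DESeq2, which passed 7.55% of all genes, also passed 0 of them, with a smallest adjusted p of 0.101 (*Reln*). An unadjusted p under 0.05 was found for 3 of the 7, *Pvalb*, *Vip* and *Reln*, and for 19.6% of all genes tested, 11.8% as higher and 7.73% as lower. Each of the 10 genes had overlapping treatments. Of all genes tested, 11.8% had treatments that did not overlap, 7.41% with *Fezf2 shRNA* higher and 4.41% lower. At that share, none among the 7 tested genes is not unusual. The mean was lower after *Fezf2 shRNA* for 9 of the 10 genes. The 7 tested genes had a median log2 fold change of -0.08, and 6 of them lay below 0, against a median of -0.03 and 56.6% below 0 over all genes tested.

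**Figure D2:**
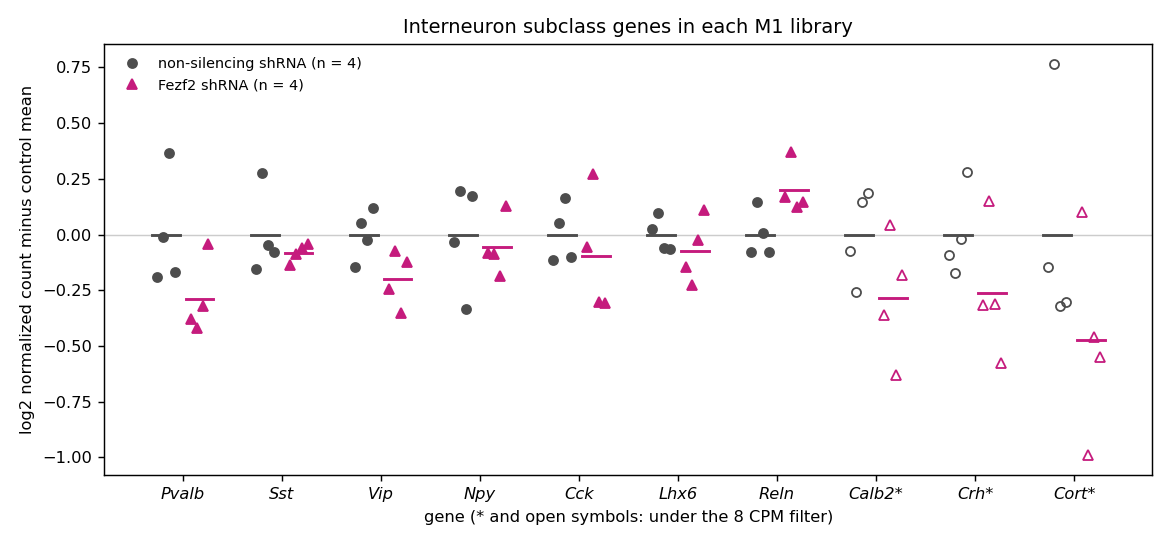
Log2 normalized count of each gene in each library, less the mean of the 4 control libraries on that scale; circles are *non-silencing shRNA*, triangles *Fezf2 shRNA* (n = 4 each), short lines are means, and open symbols are genes under the filter. The treatments overlap for every gene, and the mean after *Fezf2 shRNA* is below the control mean for all but *Reln*.

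Among the genes of the medial ganglionic eminence classes, *Pvalb* had the largest difference. *Pvalb* had 1472, 1664, 2163 and 1496 normalized counts in the 4 control libraries and 1289, 1255, 1343 and 1630 in the 4 *Fezf2 shRNA* libraries. Of the *Fezf2 shRNA* libraries, 3 of 4 lay below every control, and the other lay within the control range. The means were 1699 ± 321 and 1379 ± 171 (SD, n = 4 each), and the log2 fold change was -0.30 (standard error 0.129) with a 95% confidence interval of -0.58 to -0.02, from -33.3% to -1.15% as a change in level. The unadjusted p was 0.0399, the edgeR adjusted p 0.232, and the exact permutation p 0.0857. One control library, replicate 3, carried much of the difference, as the log2 fold change without it was -0.15. The gene (ENSMUSG00000005716) lies on the minus strand of chromosome 15 from 78191114 to 78204237 (GRCm38), with 4 exons.

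The treatments did not separate for *Sst*. *Sst* had 2617, 3527, 2820 and 2756 normalized counts in the controls and 2651, 2737, 2792 and 2823 after *Fezf2 shRNA*. All *Fezf2 shRNA* libraries fell within the control range, and 1 control library, replicate 2, stood above the other 7. The log2 fold change was -0.09 (standard error 0.0889, edgeR adjusted p = 0.588, exact permutation p = 0.657), and without control replicate 2 it was 0.01. The 95% confidence interval ran from -0.29 to 0.11, or -18.0% to 7.57% as a change in level. The *Fezf2 shRNA* libraries were close together for *Sst*, with a coefficient of variation of 2.75% against 13.9% in the controls. *Sst* is the shortest of the 10, a gene of 2 exons (ENSMUSG00000004366) on chromosome 16 from 23889573 to 23890958.

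*Lhx6*, the factor that both of these classes share, had 506, 532, 477 and 476 normalized counts in the controls and 449, 425, 489 and 536 after *Fezf2 shRNA*. The highest and the lowest library were both *Fezf2 shRNA* libraries. The log2 fold change was -0.07 (95% confidence interval -0.28 to 0.15, edgeR adjusted p = 0.725), -0.13 without *Fezf2 shRNA* replicate 4 and -0.02 without *Fezf2 shRNA* replicate 2. *Lhx6* was the gene closest to the filter among those tested, at 7.49 to 9.39 CPM, and passed it with 6 of 8 libraries over 8 CPM. The counts of *Pvalb* per count of *Sst* were 0.586 ± 0.127 in the controls and 0.501 ± 0.0524 after *Fezf2 shRNA* (SD, n = 4 each), given as a description.

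For *Vip*, the marker of the caudal ganglionic eminence class, the libraries gave 937, 1074, 1021 and 1126 normalized counts in the controls and 875, 985, 814 and 952 after *Fezf2 shRNA*. The 2 highest *Fezf2 shRNA* libraries lay above the lowest control and the other 2 below it. The means were 1040 ± 80.7 and 906 ± 76.9 (SD, n = 4 each), and the log2 fold change was -0.20 (standard error 0.0876, 95% confidence interval -0.39 to -0.00). Its unadjusted p was 0.0457, its edgeR adjusted p 0.244 and its exact permutation p 0.0857. Leaving out any 1 library gave log2 fold changes from -0.24 to -0.14. *Vip* (ENSMUSG00000019772) has 7 exons on the plus strand of chromosome 10 from 5639218 to 5647617.

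*Calb2*, made by many of the same cells, was under the filter at a mean of 3.06 CPM. *Calb2* had 177, 156, 207 and 212 normalized counts in the controls and 145, 192, 120 and 164 after *Fezf2 shRNA*. The 2 highest libraries were controls and the 2 lowest were *Fezf2 shRNA* libraries, with the rest mixed. Tested with a filter of more than 1 CPM, its log2 fold change was -0.27 (95% confidence interval -0.66 to 0.12, edgeR adjusted p = 0.469, exact permutation p = 0.171).

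The peptide genes of the smaller groups had lower means too, with wide errors. *Npy* had 1857, 2176, 1508 and 2140 normalized counts in the controls and 1793, 1790, 1673 and 2076 after *Fezf2 shRNA*. All 4 of the latter lay inside the control range, and the log2 fold change was -0.07 (95% confidence interval -0.32 to 0.19, edgeR adjusted p = 0.771, exact permutation p = 0.686), -0.16 without control replicate 3 and -0.0020 without control replicate 2. *Crh* was under the filter at a mean of 2.62 CPM, with 148, 140, 156 and 193 normalized counts in the controls and 127, 176, 127 and 106 after *Fezf2 shRNA*. Of the *Fezf2 shRNA* libraries, 3 lay below every control and the other was above 3 of the controls. With a filter of more than 1 CPM the log2 fold change of *Crh* was -0.25 (edgeR adjusted p = 0.546, exact permutation p = 0.229).

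*Cort*, which encodes a peptide closely related to somatostatin, was the least abundant of the group, at a mean of 0.765 CPM. *Cort* had 43.3, 81.5, 38.4 and 38.9 normalized counts in the controls and 51.5, 24.1, 34.8 and 32.7 after *Fezf2 shRNA*. Control replicate 2 stood far above the other controls, and it was also the highest of the 8 libraries for *Sst* and *Npy*. Fitted with no filter, the log2 fold change was -0.49 with a 95% confidence interval of -1.21 to 0.23 (edgeR adjusted p = 0.608, exact permutation p = 0.257), so at this depth neither direction can be read for *Cort*.

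*Cck* had 9171, 10275, 11112 and 9240 normalized counts in the controls and 9557, 11967, 8052 and 8011 after *Fezf2 shRNA*. The *Fezf2 shRNA* libraries spanned a wider range than the controls, with the highest and the 2 lowest of the 8 among them. The log2 fold change was -0.08 (95% confidence interval -0.36 to 0.19, edgeR adjusted p = 0.739, exact permutation p = 0.6), -0.22 without *Fezf2 shRNA* replicate 2 and -0.01 without *Fezf2 shRNA* replicate 3. Because pyramidal neurons also make *Cck*, its level in whole cortex is not one of interneurons alone.

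*Reln* was the only one of the 10 with a higher mean after *Fezf2 shRNA*. *Reln* had 4834, 5651, 5124 and 4833 normalized counts in the controls and 5732, 6588, 5551 and 5651 after *Fezf2 shRNA*. Of the *Fezf2 shRNA* libraries, replicates 1, 2 and 4 lay above every control, replicate 4 by less than 1 count, and replicate 3 lay below the highest control. The means were 5111 ± 385 and 5881 ± 478 (SD, n = 4 each), and the log2 fold change was 0.20 (standard error 0.0737) with a 95% confidence interval of 0.04 to 0.37, or 2.80% to 28.8% as a change in level. The unadjusted p was 0.0193, the edgeR adjusted p 0.172 and the exact permutation p 0.0571. Leaving out any 1 library gave 0.14 to 0.25. *Reln* (ENSMUSG00000042453) was counted over 64 exons on the minus strand of chromosome 5 from 21885250 to 22344690.

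*Reln* also differs from the other 9 genes in length. The counted intervals ran from 1.386 kb (*Sst*) to 25.669 kb (*Calb2*), and that of *Reln* was 459.441 kb. Reads were counted over the whole interval of a transcript, introns included. In 99.3% of 119569 pairs of transcripts of 1 gene with one interval inside the other, the wider interval had no fewer reads in any of the 8 libraries. That share alone cannot show that introns were counted, as a wider transcript can also hold the exons of the narrower one. The same held for 99.9% of 1487 genes that lay inside a gene on the opposite strand and had a mean of at least 20 reads. Across all genes tested, the change between treatments moved with this length. For 2153 genes under 10 kb the median log2 fold change was -0.12 and 83.4% lay below 0, and for 2983 genes of 10 to 30 kb the median was -0.07 with 75.5% below 0. For 407 genes over 300 kb the median was 0.29, and 22.1% of them passed the threshold as higher.

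The 7 tested genes were set against all genes of their own length class. *Reln*, at 0.20, lay just inside the interquartile range of the genes over 300 kb (0.19 to 0.39). *Sst*, *Npy* and *Cck*, at -0.09, -0.07 and -0.08, lay inside the interquartile range of the genes under 10 kb (-0.19 to -0.04), and *Lhx6* inside that of the genes of 10 to 30 kb (-0.14 to -0.00). *Vip* and *Pvalb* lay below the interquartile range of their length classes. With an offset that removes the trend with length in each library, the log2 fold change was -0.22 for *Pvalb* (95% confidence interval -0.51 to 0.08), -0.10 for *Vip* (-0.28 to 0.08) and -0.02 for *Lhx6*, and the sign turned for *Sst* (0.03), *Npy* (0.04), *Cck* (0.02) and *Reln* (-0.08). The median of the 7 was then -0.02, against -0.01 over all genes tested. With the offset none of the 7 passed the threshold, which 0.0201% of all genes tested passed.

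**Figure D3:**
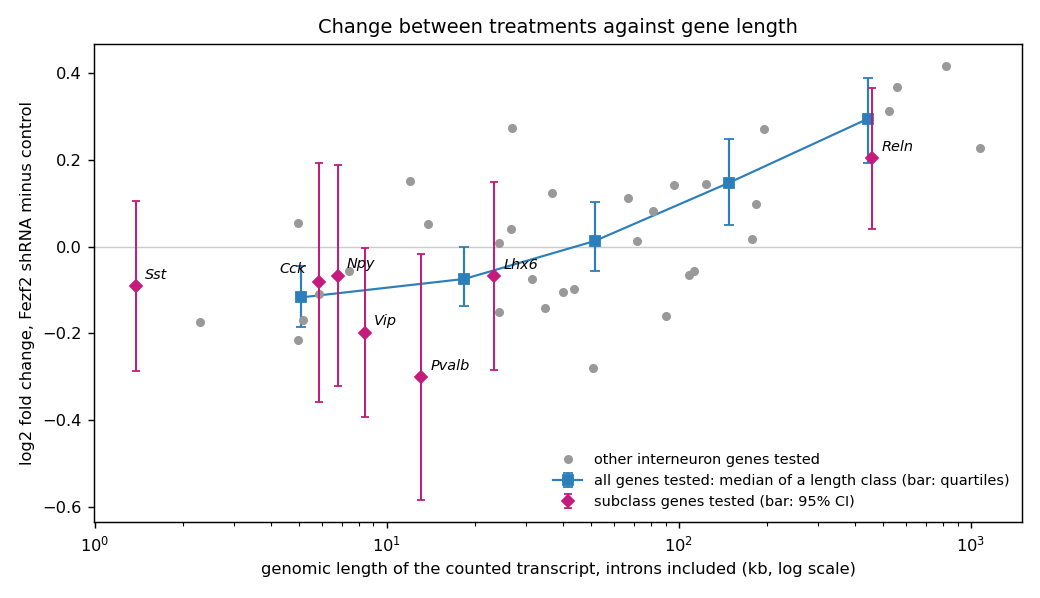
Log2 fold change (*Fezf2 shRNA* minus control) against the genomic length of the counted transcript in kb (log axis): diamonds are the 7 tested subclass genes with 95% confidence intervals, grey points other interneuron genes tested, and squares the median of all genes tested in a length class with bars over the quartiles. The medians climb from -0.12 to 0.29 with length, and *Reln* at 0.20 lies on the long end while the other 6 lie on the short end.

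The annotated transcripts of *Reln* that begin at its start and end at different points divide the gene into 5 successive stretches, whose reads were obtained by subtraction (a division made after the values of *Reln* were seen). In the first stretch, 119.8 kb with 3 of the 64 exons, the controls had 380, 413, 430 and 389 normalized counts and the *Fezf2 shRNA* libraries 564, 837, 515 and 531. All *Fezf2 shRNA* libraries were above all controls, with a log2 difference of 0.58 (exact permutation p = 0.0286). That difference was 0.42 without *Fezf2 shRNA* replicate 2, which stood above the other 3. The second stretch (1 exon; 503 ± 9.83 against 604 ± 36.3, SD, n = 4 each) and the one before the last (17 exons; 1361 ± 109 against 1665 ± 95.1) also did not overlap, with log2 differences of 0.26 and 0.29 (exact permutation p = 0.0286 each). In the third stretch, with 4 exons, the treatments overlapped at 131 ± 19.8 and 140 ± 29.8 normalized counts (exact permutation p = 0.6).

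The last stretch, the 3′ end of the gene, holds 39 of the 64 exons and 7061 exonic bases, and had the most reads per kb. There the controls had 2713 ± 250 and the *Fezf2 shRNA* libraries 2860 ± 261 normalized counts (SD, n = 4 each), which overlapped, with a log2 difference of 0.08 (exact permutation p = 0.429). Most of the higher total of *Reln* lay in the first 4 stretches, of whose bases 0.13% to 2.19% were exonic, against 5.99% in the last. Whether the stretches differ from each other was not tested. An antisense gene, *Gm10475*, lies within the last stretch over 43084 bases with 885 to 1136 raw counts in its own interval. The strand setting of the counting is not stated, so its reads and those of *Reln* cannot be told apart there, and the other genes with a count inside *Reln* or *Lhx6* had at most 54 raw counts in any library, while *Gm19666* inside *Reln* had no value here.

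**Figure D4:**
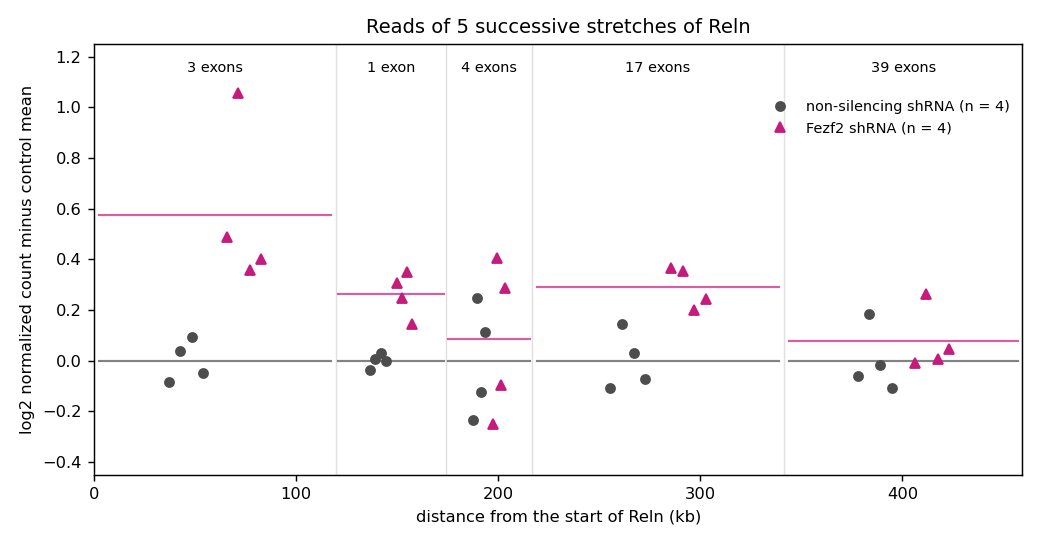
Log2 normalized count of 5 successive stretches of *Reln*, less the control mean on that scale, against distance from the start of the gene in kb; circles are *non-silencing shRNA*, triangles *Fezf2 shRNA* (n = 4 each), and horizontal lines are means. The treatments separate in the first 2 stretches and in the one with 17 exons, and overlap in the third and in the last, which holds 39 exons.

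Genes that act with the 10 were read from lists of receptors, processing enzymes and further interneuron markers. Over all genes tested, 19.6% had an unadjusted p under 0.05 and 7.55% passed the threshold with DESeq2. A list of 18 genes held receptors for these peptides and for reelin, and the reelin adaptor *Dab1*. Of these 18, 12 were tested and none passed the threshold (none with DESeq2 either). Their median log2 fold change was 0.01, with 1 gene at an unadjusted p under 0.05. The 4 somatostatin receptors tested had log2 fold changes of -0.02 (*Sstr1*), -0.24 (*Sstr2*), -0.26 (*Sstr3*) and -0.10 (*Sstr4*), with edgeR adjusted p of 0.962, 0.430, 0.311 and 0.744, and *Sstr2* was at -0.05 without control replicate 2. The gene at an unadjusted p under 0.05 was *Dab1*, the intracellular adaptor of reelin signalling, at 0.32 (edgeR adjusted p = 0.171; 0.16 with the offset for gene length), named after its value was seen. All 12 genes of peptide processing and dense-core vesicles were tested, with a median of -0.02, none past the threshold, 1 at an unadjusted p under 0.05 and 1 past the threshold with DESeq2. The prohormone convertases had log2 fold changes of 0.12 (*Pcsk1*, standard error 0.242) and 0.22 (*Pcsk2*, standard error 0.063, edgeR adjusted p = 0.0987). *Pcsk2*, of 270.13 kb, had treatments that did not overlap, and its log2 fold change was 0.00 with the length offset.

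Of the further genes on the interneuron lists, 2 passed the threshold as higher, *Npas3* and *Kcnc2*. *Npas3*, a transcription factor active in interneuron development, had 3239 to 3846 normalized counts in the controls and 4204 to 4986 after *Fezf2 shRNA*, a log2 fold change of 0.42 (edgeR adjusted p = 0.0276). *Kcnc2*, a potassium channel subunit of fast-spiking cells, had 7369 to 7892 in the controls and 8854 to 9338 after *Fezf2 shRNA*, a log2 fold change of 0.27 (edgeR adjusted p = 0.0309). Among all genes tested, 1.96% passed the threshold as higher. The share was 22.1% of the genes over 300 kb and 5.63% of those of 100 to 300 kb. *Npas3* spans 823.499 kb and *Kcnc2* 195.184 kb, and with the length offset their log2 fold changes were 0.06 and 0.09, with edgeR adjusted p of 0.856 and 0.609. When 1 library was left out, *Kcnc2* missed the threshold in 6 of 8 cases (adjusted p up to 0.106) and *Npas3* in 4, with log2 fold changes over all cases of 0.26 to 0.29 and 0.37 to 0.47. *Kcnc2* also missed it with library totals (edgeR adjusted p = 0.0717), with a filter of 1 CPM (0.0563) or none (0.0835) and with the replicate number as a block (0.0627), at log2 fold changes of 0.24 to 0.28.

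The other markers of each class were counted by list, beside 2.09% of all genes tested that passed in edgeR and 7.55% in DESeq2. Of 18 interneuron transcription factors, 7 were tested, with a median of 0.04, and *Npas3* alone passed in edgeR, against 2 genes in DESeq2. *Dlx1*, which specifies interneurons early, was at -0.11, and *Sox6*, needed for medial ganglionic eminence cells, at 0.31 (edgeR adjusted p = 0.530 and 0.0722). *Sox6*, of 523.743 kb, was the other gene that passed in DESeq2 (adjusted p = 0.0102), passed in edgeR without *Fezf2 shRNA* replicate 2 (adjusted p = 0.0423), and was at 0.01 with the length offset. Of 12 co-markers of parvalbumin cells, 8 were tested, with a median of 0.09, and *Kcnc2* alone passed. The related channel subunit *Kcnc1* was at 0.12, the synaptic vesicle protein *Syt2* at -0.10 and the neuregulin receptor *Erbb4* at 0.23, none past the threshold, and the last of these at -0.16 with the length offset.

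An unadjusted p under 0.05 was found for 19.6% of all genes tested, and 7.55% passed the threshold in DESeq2. Of 12 co-markers of somatostatin cells, 5 were tested, with a median of 0.10 (-0.07 with the length offset). None passed the threshold in either tool, and 2 were at an unadjusted p under 0.05. The latter were *Calb1* (calbindin) at 0.27 and, in the other direction, *Rab3b*, a vesicle GTPase named after its value was seen, at -0.28 (edgeR adjusted p = 0.205 and 0.143). Further, *Elfn1* stood at 0.11, *Grin3a* at 0.10 and *Nos1* at -0.06, with edgeR adjusted p of 0.559, 0.445 and 0.771. Of 12 co-markers of Vip cells, 4 were tested, with a median of -0.16 and none past the threshold in edgeR, 1 of them, *Adarb2*, at an unadjusted p under 0.05 and past the threshold with DESeq2. *Igfbp6*, *Penk* (the enkephalin precursor) and *Cnr1* (the cannabinoid receptor) stood at -0.17, -0.22 and -0.15, and *Adarb2*, of 558.665 kb, at 0.37 (0.05 with the length offset). Of 10 co-markers of Lamp5 and neurogliaform cells, 7 were tested, with a median of 0.02 and none past the threshold in edgeR (*Lamp5* at 0.15, *Id2* at -0.17, *Adarb2* again the gene that DESeq2 passed).

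Of the genes common to all GABA neurons, all 5 were tested and none passed in either tool. Their median log2 fold change was -0.07, and 1 had an unadjusted p under 0.05, against 19.6% of all genes tested. The GABA-synthesizing enzymes *Gad1* and *Gad2* stood at -0.10 and 0.01 (standard errors 0.0671 and 0.0754) and the vesicular transporter *Slc32a1* at 0.05. Divided at 100 kb, the 40 distinct interneuron genes tested differed in sign with the length of the gene, as did all genes. Of 29 shorter genes, 18 (62.1%) lay below 0, with a median of -0.08 and none past the threshold. Of 8255 shorter genes of any kind, 65.8% lay below 0 and 0.545% passed the threshold, with a median of -0.05. Of 11 longer genes, 9 (81.8%) lay above 0 and 2, *Npas3* and *Kcnc2*, passed the threshold, with a median of 0.20. Of 1704 longer genes of any kind, 87.7% lay above 0 and 9.57% passed, with a median of 0.18.

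Other cell types were followed beside these genes. Among all genes tested, 19.6% had an unadjusted p under 0.05, and 2.09% passed the threshold in edgeR and 7.55% in DESeq2. All 7 oligodendrocyte markers tested lay below 0, with a median log2 fold change of -0.52, 5 of them at an unadjusted p under 0.05, none past the threshold in edgeR (1 with the replicate number as a block) and 2 in DESeq2. Neither the astrocyte markers (7 tested, median -0.08) nor the microglia markers (5 tested, median 0.03) nor the endothelial markers (2 tested, median -0.09) held a gene past the threshold in either tool or at an unadjusted p under 0.05. The list of activity-regulated genes, 9 of 10 tested, had a median of 0.30 with 8 above 0, again with none past the threshold, none at an unadjusted p under 0.05 and none in DESeq2. Of 8 markers of striatal projection neurons, 4 were tested, with a median of 0.03, none past the threshold in edgeR, 1 at an unadjusted p under 0.05 and 1 past the threshold in DESeq2. The 10 markers of cortical excitatory neurons had a median of -0.05, with none past the threshold in edgeR, 4 at an unadjusted p under 0.05 and 1 past the threshold in DESeq2. The part of a change in tissue make-up or in neuronal activity in the values of the interneuron genes was not tested.

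The profile of *Pvalb*, *Sst* and *Vip* over the 8 libraries was compared with that of every other gene tested, as the root mean square difference of log2 normalized counts centred on each gene's mean. The closest to *Pvalb* were *Ndufa5* and *Ndufs6*, subunits of mitochondrial complex I, at 0.102 and 0.104, where the median over all genes was 0.268. The closest to *Sst* were *Lman2l* and *Socs7*, at 0.0362 and 0.0440 (median 0.177). The closest to *Vip* were *Aurkaip1* and *Phgdh*, at 0.0434 and 0.0461 (median 0.181). Among the few other subclass genes tested, the nearest were *Lhx6* to *Pvalb* (0.211), *Lhx6* to *Sst* (0.117) and *Sst* to *Vip* (0.144). A gene that did not vary over the libraries would lie at 0.238 from *Pvalb*, 0.126 from *Sst* and 0.143 from *Vip*. The closest genes were picked from all genes tested, so their distances cannot be compared with those of so few subclass genes. These distances describe 8 libraries of nearly equal depth and carry no test.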

How the data were processed

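Per the labels and the study's methods, total RNA of dissected M1 was made into TruSeq total RNA libraries and sequenced in pairs. The authors trimmed adapters, aligned reads with TopHat2 2.1.1 to mm10 (GRCm38) and counted them per Ensembl transcript with BEDTools 2.26.0. The deposited values are raw counts per transcript and library, with no normalization, and whether strand or multiple alignments were considered is not given in the sources used here. A second deposited table, the authors' DESeq2 comparison (fold changes, standard errors, statistics and p-values), was not used.

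Of 94647 transcripts, 91320 were found in GENCODE M21, and the others held 1.82% of the counts. Each gene was represented by its transcript with the lowest Ensembl number. Samples were grouped by their source labels, and each library was taken as 1 animal. Counts were tested with edgeR 4.0.16 in R 4.3.3 (TMM, quasi-likelihood test, no covariate, Benjamini-Hochberg over the 9959 genes above 8 CPM in 4 or more libraries), with a common biological coefficient of variation of 11.7%. Normalized counts were scaled from the TMM-adjusted size of each library to the mean of these sizes. Confidence intervals at 95% come from the fit. Single genes were also compared by two-sided exact permutation of mean log2 normalized counts in Python 3.11.15. The edgeR step was tested on simulated data.

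The 10 genes and all lists were chosen with earlier results of these data known. Named are the 10 genes, list genes past the threshold and at most 4 others per list in list order, 2 genes nearest in profile to *Pvalb*, *Sst* and *Vip*, *Fezf2*, and overlapping genes. Some genes of the lists are not reported here by name but remain in the counts and medians. Alternatives were 3 other normalizations, 2 other filters, DESeq2 1.42.0, the widest transcript, the replicate number as a block, an offset for gene length (loess, span 0.3), both together, and leaving out each library. The offset with a filter of 1 CPM, and the stretches of *Reln*, were added after the data were seen.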

Additional observations from a re-analysis of the deposited data

Results flagged for a closer look

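In the 34 groups of 4 libraries examined for a single library far from the others, 2 were flagged, where chance flags about 1 group in 20. *Cort* had 81.5 normalized counts in *non-silencing shRNA* replicate 2, against 43.3 in the nearest control. The first stretch of *Reln* had 837 normalized counts in *Fezf2 shRNA* replicate 2, against 564 in the nearest library of that treatment.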

How the results depend on the processing

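None of the 10 genes passed the threshold under any alternative, and the smallest adjusted p of one (edgeR) was 0.0742, for *Reln* without control replicate 2. Of 137 values of these genes under alternatives, 124 kept their direction and side of the threshold and 13 turned their sign. With the length offset, with that offset and the replicate block, and with that offset and a filter of 1 CPM (added after the data were seen), the log2 fold changes were 0.0303, 0.0394 and 0.0178 for *Sst*, 0.0393, 0.0487 and 0.0240 for *Npy*, 0.0186, 0.0105 and 0.00745 for *Cck* and -0.0767, -0.0836 and -0.0756 for *Reln*. Under the same 3 settings they were 0.0904, 0.0782 and 0.0847 for *Sstr1*, 0.0213, 0.0404 and 0.00870 for *Sstr4*, -0.161, -0.163 and -0.155 for *Erbb4*, -0.0680, -0.0683 and -0.0753 for *Grin3a* and -0.0407, -0.0366 and -0.0557 for *Gad2*, and under the last *Pcsk2* was at -0.00131. *Gad2* was at -0.0127 with library totals and *Nos1* at 0.0116 with the widest transcript.

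Leaving out 1 library at a time gave ranges of -0.142 to 0.00996 for *Sst*, -0.164 to 0.0681 for *Sstr1*, -0.0766 to 0.302 for *Pcsk1*, -0.216 to 0.00665 for *Syt2*, -0.0914 to 0.0112 for *Nos1*, -0.0275 to 0.0856 for *Gad2* and -0.0184 to 0.201 for the third stretch of *Reln*. With 3 against 4 libraries the exact p of the second stretch of *Reln* was 0.0571 without control replicate 1 or 2, at log2 differences of 0.249 and 0.265, and that of the stretch with 17 exons without any 1 *Fezf2 shRNA* library, at 0.267 to 0.332.

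The count of genes past the threshold, 208 in edgeR, was 84 with a filter of 1 CPM, 103 with none, 752 with DESeq2, 2 with the length offset, 2 with that offset and the replicate block, 3 with it and a filter of 1 CPM, and 0 to 368 when 1 library was left out (0 without control replicate 1, 368 without control replicate 2). The cause was not tested. With the replicate number as a block 90 genes passed. The correlations over genes of same-numbered libraries were 0.303, 0.0902, -0.133 and 0.167. The libraries of replicates 1 and 4 correlated best with their own number, and those of replicates 2 and 3 did not. With so few libraries, whether the numbers pair the samples cannot be told. *Calb2*, *Crh* and *Cort* were under the filter, with at most 218 raw counts in a library.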
